A study of Mus musculus with 16 samples.

Results

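Interferon-stimulated genes were examined as a list of 52 genes, chosen by name from 47937 genes in the count tables, with the Irf genes left out. Each was matched by its Ensembl identifier and was kept if its mean count exceeded 10 in at least 1 group. All 52 members passed, and the weakest, Gbp9, still averaged 125 counts in its highest group. The libraries were bulk polyA RNA-seq of MPP3 (LSK+ CD150- CD48+, with a myeloid bias) and MPP4 (LSK+ CD150- CD48+ Flt3+, with a lymphoid bias), which are multipotent progenitors isolated by flow cytometry from the marrow of mice. There were 16 libraries from C57BL/6 mice. Libraries of both populations that share genotype and replicate number also share sex and age in the labels, so each such pair was taken as 1 mouse (8 mice), although no label says so. They formed 4 groups of 4, MPP3 WT, MPP3 KO, MPP4 WT and MPP4 KO.

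By their labels, the WT mice were Ebf1fl/fl Tie2Cre+/+ and the KO mice Ebf1fl/fl with 1 Tie2Cre allele (Tie2Cre +/cre), so the loxP-flanked Ebf1 alleles were shared and the Cre transgene differed. Other descriptions of the series give the controls as Tie2Cre carriers with unmodified Ebf1, so a difference in Ebf1 alleles cannot be told apart from one in the transgene. EBF1 is a transcription factor of B cell specification. Because Tie2 is a gene of vessel-lining cells and of blood stem cells, its Cre is not limited to MPP3 and MPP4, and a deletion would be carried into all blood lineages. The WT mice were 12, 11, 12 and 11 wk old (WT1 to WT4) and the KO mice 10, 9, 11 and 11 wk old (KO1 to KO4). WT1, WT2, KO3 and KO4 were female, and WT3, WT4, KO1 and KO2 were male.

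Interferons are secreted proteins that warn cells of infection. Type I interferons signal through IFNAR1 and IFNAR2 to a complex that holds STAT2 and IRF9 and binds the interferon-stimulated response element (ISRE), whereas interferon-γ signals through IFNGR1 and IFNGR2 to the gamma-activated site (GAS). Their target genes encode sensors of foreign nucleic acid, enzymes that degrade or sequester viral RNA, GTPases that attack pathogen-containing vacuoles and the proteasome subunits of antigen presentation. Blood stem and progenitor cells keep a part of this program on without infection, and interferons can drive them into cycle.

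The libraries held 24823708 to 48703193 counts, and the members took 0.538 to 0.714% of the counts of the tested genes. Ebf1 itself, the targeted gene, had 5, 21, 91 and 82 counts in MPP3 WT 1 to 4 and 23, 6, 84 and 6 in MPP3 KO 1 to 4. In MPP4, it had 187, 98, 199 and 263 counts in WT 1 to 4 and 817, 928, 488 and 642 in KO 1 to 4. The MPP4 libraries thus went against their labels. The MPP3 KO libraries lay within the range of MPP3 WT, with KO 3 (84) near WT 3 and WT 4. The location of these reads within the gene is not given by gene counts, and KO and WT below mean the libraries so labelled, for every direction given. Flt3 and Dntt, which mark the MPP4 side, and Mpo and Elane, which mark the MPP3 side, set the populations apart as labelled, with a summed level of the MPP4 list of 253 to 378 CPM (counts scaled to library size) in MPP3 and 2458 to 2931 CPM in MPP4.

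The promoters of 5 members are shown because these genes carry the patterns described below: Gbp3, Igtp and Psmb8 lay above WT in every KO library of both populations, whereas Ifit3 and Isg15 were highest in the libraries of mouse KO3. Each is a RefSeq window (GRCm38.p6) from 250 bases before to 50 bases after a transcription start on the gene's strand. Capitals mark GAAA followed by any 2 bases and GAAA, on either strand (ISRE-like), and TTC followed by any 3 bases and GAA, which reads alike on both strands (GAS-like).
Gbp3, chr3:142559794-142560093, plus strand: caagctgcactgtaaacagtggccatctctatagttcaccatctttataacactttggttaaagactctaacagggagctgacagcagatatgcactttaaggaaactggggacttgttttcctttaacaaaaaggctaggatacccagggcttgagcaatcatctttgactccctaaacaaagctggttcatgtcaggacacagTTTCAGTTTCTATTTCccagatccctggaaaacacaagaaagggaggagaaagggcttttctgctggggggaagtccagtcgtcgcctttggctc
Igtp, chr11:58199306-58199605, plus strand: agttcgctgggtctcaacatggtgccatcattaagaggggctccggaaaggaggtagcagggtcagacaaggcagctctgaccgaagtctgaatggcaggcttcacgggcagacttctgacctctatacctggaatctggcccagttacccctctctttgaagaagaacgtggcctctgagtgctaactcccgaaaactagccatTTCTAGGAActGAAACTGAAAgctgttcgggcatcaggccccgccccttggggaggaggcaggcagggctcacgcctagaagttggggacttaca
Psmb8, chr17:34197945-34198244, plus strand: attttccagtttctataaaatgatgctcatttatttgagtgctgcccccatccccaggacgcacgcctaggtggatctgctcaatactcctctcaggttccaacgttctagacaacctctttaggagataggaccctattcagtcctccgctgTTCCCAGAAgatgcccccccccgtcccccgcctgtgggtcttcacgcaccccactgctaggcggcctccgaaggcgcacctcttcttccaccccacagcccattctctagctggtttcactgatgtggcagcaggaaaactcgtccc
Ifit3, chr19:34583279-34583578, plus strand: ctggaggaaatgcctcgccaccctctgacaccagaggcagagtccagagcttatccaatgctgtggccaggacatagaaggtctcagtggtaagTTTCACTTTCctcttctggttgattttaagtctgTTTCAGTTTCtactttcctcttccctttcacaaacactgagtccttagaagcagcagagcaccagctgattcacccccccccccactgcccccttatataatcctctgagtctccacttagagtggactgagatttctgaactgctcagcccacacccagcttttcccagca
Isg15, chr4:156200769-156201068, minus strand: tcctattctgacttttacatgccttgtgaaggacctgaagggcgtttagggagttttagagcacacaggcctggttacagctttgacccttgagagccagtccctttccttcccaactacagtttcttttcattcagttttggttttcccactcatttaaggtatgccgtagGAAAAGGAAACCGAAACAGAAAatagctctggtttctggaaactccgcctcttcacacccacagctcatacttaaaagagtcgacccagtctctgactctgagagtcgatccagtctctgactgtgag

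Gbp3 held 2 ISRE-like matches that overlap, GAAACTGAAA and GAAATAGAAA, which begin 45 and 39 bases before the start. Isg15 held 3 in an overlapping run beginning 78, 72 and 66 bases before the start, and Ifit3 held 2, at 156 and 122 bases. Igtp held a GAS-like match, TTCTAGGAA, 45 bases before the start, followed by an ISRE-like match, GAAACTGAAA, at 34 bases. Psmb8 held a GAS-like match, TTCCCAGAA, 97 bases before the start and no ISRE-like match, in a window that lies within the GENCODE gene. Another window of Gbp3, chr3:142560106-142560405, held 0 matches of either kind. Windows were found for 39 of 52 members, and 21 of the 39 (53.8%) held an ISRE-like match against 3.99% of 27025 genes. A gene was counted if any of its windows held a match. A GAS-like match was found in 13 members (33.3%) against 9.55% of genes. All 4 guanylate-binding protein genes with a window (Gbp2, Gbp3, Gbp5 and Gbp7) and 3 of 4 immunity-related GTPase genes (Igtp, Irgm1 and Irgm2, but not Ifi47) held an ISRE-like match, as against 0 of 4 antigen processing genes. The letters describe these windows only. Tap1 and Psmb9 are divergent neighbours whose windows overlap. No window was matched for Dhx58, Zbp1, Usp18, Oas2, Ifi27, Rtp4, Gbp6, Gbp8, Gbp9, Iigp1, Tap2, Parp9 and Parp14.

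Levels differed widely between members. Per kilobase of exon, the mean over the 16 libraries was highest for Ifitm2 (1275 CPM per kb), Ifitm3 (592 CPM per kb) and Ifitm1 (432 CPM per kb), which encode membrane proteins that block the entry of viruses. Next came Psmb8, an immunoproteasome subunit, at 206 CPM per kb and Bst2, which tethers virus particles to the cell, at 140 CPM per kb. The guanylate-binding protein genes were divided, with Gbp9 at 0.418, Gbp6 at 0.687, Gbp5 at 0.929 and Gbp8 at 1.21 CPM per kb, but Gbp3 at 22.4, Gbp7 at 26.5 and Gbp2 at 29.5 CPM per kb. Ifit3 was at 3.37, Rsad2 at 4.42 and Ifit1 at 7.18 CPM per kb, whereas Isg15 was at 25.1 and Oas1a at 28.6 CPM per kb. Because 26 members overlap another annotated gene (18 on the opposite strand), and because the Gbp, Oas, Ifit and Ifitm families have close paralogs, reads could be split or shared between them; Igtp and Irgm2 overlap on 1 strand.

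The comparison of KO with WT asked whether the program differs with the Ebf1 genotype. In MPP3, the levels leaned upwards as a whole: 41 of 52 members had a log2 fold change above 0, where 48.7% of all tested genes did, and the median was 0.27 against -0.01 over all genes. With edgeR's quasi-likelihood test and Benjamini-Hochberg adjustment, 0 members had an FDR under 0.1, as did 0.0482% of all 16585 genes (4 higher and 4 lower, 0.0241% each), and the smallest FDR of a member was 0.183. At an unadjusted p under 0.05, 14 members (26.9%) were higher in KO, against 3.84% of genes, and 0 were lower, against 5.04%. DESeq2 on the same counts called 6 members higher, Gbp3, Iigp1, Ifi47, Igtp, Psmb8 and Ifit3, against 0.693% of genes, and 0 lower, against 0.661%. In 10 members, the lowest KO library exceeded the highest WT library, which was so for 1.93% of genes, and the reverse held for 0 members and 2.01% of genes. In bulk samples, a different share of cells that express a gene and a different amount of RNA per cell cannot be told apart.

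Gbp3 encodes a guanylate-binding protein, a GTPase that acts on intracellular pathogens. Its level in MPP3 was 52.1, 55.0, 48.5 and 65.6 CPM in WT 1 to 4 and 73.8, 73.9, 96.6 and 76.6 CPM in KO 1 to 4. The lowest KO library exceeded the highest WT library, and KO 3 was at the top. The log2 fold change was 0.54 ± 0.11 (SE, n = 4 per group; edgeR FDR = 0.183, DESeq2 FDR = 0.00251). In MPP4, Gbp3 was at 70.8, 66.9, 63.5 and 70.4 CPM in WT 1 to 4 and at 83.1, 83.2, 104.9 and 83.5 CPM in KO 1 to 4. The groups again did not overlap, and the log2 fold change was 0.38 ± 0.11 (edgeR FDR = 0.251, DESeq2 FDR = 0.0598).

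The immunity-related GTPases Igtp and Iigp1, which are loaded onto vacuoles that hold parasites, gave the same picture. Iigp1 was at 15.4, 16.5, 14.9 and 18.7 CPM in MPP3 WT 1 to 4 and at 39.7, 27.3, 43.1 and 22.7 CPM in MPP3 KO 1 to 4. Of the 4 members whose groups did not overlap in either population it had the largest log2 fold change, 1.02 ± 0.23, or 2.03-fold (edgeR FDR = 0.183, DESeq2 FDR = 0.00413). In MPP4, Iigp1 was at 23.5, 24.5, 18.0 and 27.8 CPM in WT 1 to 4 and at 36.7, 28.8, 60.9 and 32.9 CPM in KO 1 to 4. The lowest KO library, KO 2, was only just above the highest WT library, WT 4, and the log2 fold change was 0.76 ± 0.23 (edgeR FDR = 0.264, DESeq2 FDR = 0.0569). Igtp was at 77.4, 76.7, 65.0 and 72.0 CPM in MPP3 WT 1 to 4 and at 95.1, 96.6, 114.1 and 86.1 CPM in MPP3 KO 1 to 4. Here KO 3 and KO 4 were the highest and lowest KO libraries, and the log2 fold change was 0.43 ± 0.11 (edgeR FDR = 0.229, DESeq2 FDR = 0.0194). In MPP4, Igtp was at 89.6, 83.7, 71.5 and 81.9 CPM in WT and at 108.4, 99.7, 121.8 and 89.96 CPM in KO, with KO 4 only just above WT 1 and a log2 fold change of 0.36 ± 0.11 (edgeR FDR = 0.252, DESeq2 FDR = 0.0588).

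Ifi47, another gene of this family, was at 172, 166, 166 and 176 CPM in MPP3 WT 1 to 4 and at 215, 223, 242 and 193 CPM in MPP3 KO 1 to 4. Its groups did not overlap in MPP3 (log2 fold change 0.36 ± 0.08; edgeR FDR = 0.188, DESeq2 FDR = 0.0128). They did in MPP4, at 152 to 190 CPM in WT and 176 to 214 CPM in KO (log2 fold change 0.16 ± 0.08; edgeR FDR = 0.534). Irgm1, which keeps such GTPases in check, had the lowest log2 fold change of all members in MPP3, -0.33, with WT at 73.3 to 99.95 CPM and KO at 54.7 to 82.8 CPM.

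Psmb8, the immunoproteasome subunit that trims peptides for MHC class I, was at 591.5, 549, 606 and 639 CPM in MPP3 WT 1 to 4 and at 670, 752, 783 and 700.2 CPM in MPP3 KO 1 to 4. The libraries of each group lay close together, and the log2 fold change of 0.28 ± 0.07 was small against those of the GTPases (edgeR FDR = 0.233, DESeq2 FDR = 0.0419). Psmb8 in MPP4 was at 626, 655, 583 and 712 CPM in WT 1 to 4 and at 766, 903, 839 and 768 CPM in KO 1 to 4. Psmb8 had the smallest FDR of the members in MPP4, 0.155 by edgeR and 0.00519 by DESeq2, with a log2 fold change of 0.35 ± 0.07. The partner subunits were nearer to 0: in MPP3, Psmb9 had a log2 fold change of 0.18 ± 0.07, and Tap1, which carries peptides into the endoplasmic reticulum, had WT at 207 to 275 CPM and KO at 241 to 329 CPM.

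**Figure D1:**
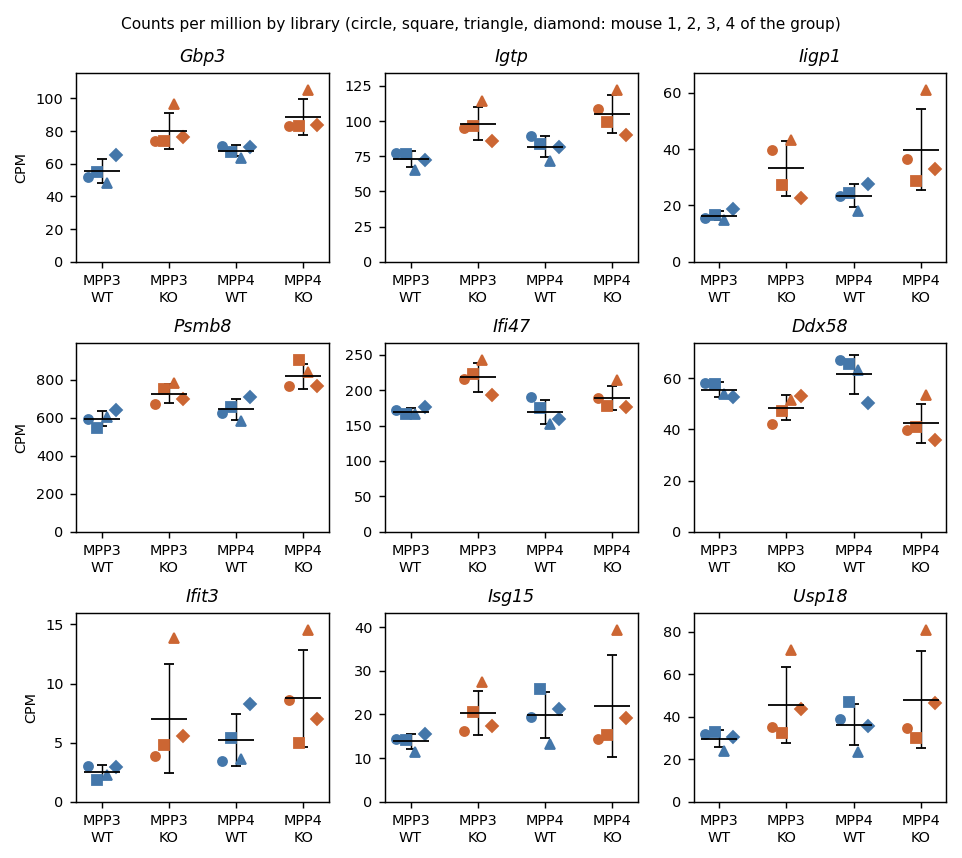
Level of 9 members in every library, in CPM on a linear axis from 0; the symbols are the mice of a group, and the bars are the mean and SD (n = 4). Gbp3, Igtp, Iigp1 and Psmb8 show 4 KO libraries above 4 WT libraries in both populations, whereas Ifit3, Isg15 and Usp18 show the KO3 triangle above the others, at 80.6 CPM for Usp18 in MPP4.

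In Ifit3, Usp18 and Isg15, KO 3 was the highest KO library in MPP3. Ifit3, whose protein binds foreign RNA with IFIT1, was at 3.06, 1.79, 2.24 and 2.96 CPM in MPP3 WT 1 to 4 and at 3.84, 4.80, 13.9 and 5.56 CPM in MPP3 KO 1 to 4. The groups did not overlap, but KO 3 was far above the other KO libraries (log2 fold change 1.48 ± 0.42; edgeR FDR = 0.283, DESeq2 FDR = 0.0419), and without mouse KO3 the log2 fold change was 0.91. Usp18, which removes ISG15 from proteins and dampens the receptor, was at 32.0, 32.6, 23.8 and 30.3 CPM in MPP3 WT 1 to 4 and at 35.0, 32.3, 71.4 and 43.6 CPM in MPP3 KO 1 to 4. KO 2 lay within the WT range, and the log2 fold change of 0.62 ± 0.30 had an edgeR FDR of 0.585. Isg15, a ubiquitin-like modifier, was at 14.4, 14.1, 11.3 and 15.4 CPM in MPP3 WT 1 to 4 and at 16.1, 20.5, 27.4 and 17.3 CPM in MPP3 KO 1 to 4, without overlap (log2 fold change 0.56 ± 0.29; edgeR FDR = 0.628), and without mouse KO3 the log2 fold change was 0.38.

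In MPP4, 39 of 52 members had a log2 fold change above 0, against 47.5% of genes, and the median was 0.15 against -0.01 over all genes. Without mouse KO3, the median of the members was -0.03. As in MPP3, edgeR gave 0 members with an FDR under 0.1, against 0.0121% of genes (2 genes). At an unadjusted p under 0.05, 9 members (17.3%) were higher, against 4.46% of genes, and 1 was lower, against 5.89%. DESeq2 called 4 members higher, Psmb8, Gbp3, Igtp and Iigp1, against 1.08% of genes, and 1 lower, Ddx58, against 1.22%. Groups did not overlap in 5 members that were higher (Gbp3, Gbp7, Igtp, Iigp1 and Psmb8), against 2.38% of genes, and in 0 that were lower, against 3.65%. The MPP3 and MPP4 comparisons rest on the same pairs of libraries, taken as 8 mice, so their shared genes are not independent of each other.

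Ddx58 was the exception. It encodes RIG-I, the cytoplasmic sensor of viral RNA with a free triphosphate end, and was at 67.1, 65.8, 63.4 and 50.4 CPM in MPP4 WT 1 to 4 and at 39.7, 40.9, 53.4 and 35.8 CPM in MPP4 KO 1 to 4. Only KO 3 reached into the WT range, above WT 4, and the log2 fold change was -0.54 ± 0.12 (edgeR FDR = 0.174, DESeq2 FDR = 0.00941). In MPP3, Ddx58 was at 52.6 to 58.1 CPM in WT and 42.3 to 53.1 CPM in KO, with a log2 fold change of -0.20 ± 0.12 (edgeR FDR = 0.726). The related sensor Ifih1 (MDA5) was at 37.4 to 59.1 CPM in MPP3 WT, against 42.8 to 50.8 CPM in MPP3 KO, and at 30.7 to 43.5 CPM in MPP4 WT, against 25.8 to 41.8 CPM in MPP4 KO.

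The members fixed for each role were read library by library as well. Ifit1, the companion of Ifit3, was at 12.5, 18.4, 10.8 and 20.8 CPM in MPP3 WT 1 to 4 and at 16.02, 21.2, 35.6 and 22.5 CPM in MPP3 KO 1 to 4. The KO 3 value again stood above the rest, while KO 1 lay within the WT range (log2 fold change 0.61 ± 0.33; edgeR FDR = 0.667). In MPP4, Ifit1 was at 16.3, 19.6, 10.2 and 20.6 CPM in WT 1 to 4 and at 13.3, 16.3, 36.2 and 14.8 CPM in KO 1 to 4, so that the other KO libraries lay inside the WT range. Isg15 in MPP4 was at 19.3, 25.8, 13.2 and 21.2 CPM in WT 1 to 4 and at 14.3, 15.4, 39.3 and 19.1 CPM in KO 1 to 4, with the same high KO 3 value and 3 KO libraries inside the WT range. Oas1a was at 56.8, 51.2, 34.8 and 46.6 CPM in MPP3 WT 1 to 4 and at 44.9, 50.1, 81.5 and 63.2 CPM in MPP3 KO 1 to 4, and only KO 3 and KO 4, the females, lay above all WT libraries (log2 fold change 0.34 ± 0.23; edgeR FDR = 0.760). Without mouse KO3, the MPP3 log2 fold changes of Oas1a and Ifit1 were 0.16 and 0.35. Gbp2 was at 78.2, 81.9, 80.6 and 95.6 CPM in MPP3 WT 1 to 4 and at 87.1, 78.8, 95.4 and 98.5 CPM in MPP3 KO 1 to 4. In MPP4, Gbp2 was at 60.6, 59.8, 68.4 and 64.2 CPM in WT 1 to 4 and at 47.2, 50.5, 77.0 and 62.2 CPM in KO 1 to 4. Its MPP4 log2 fold change, -0.096, was the only one of its role below 0, and it was -0.25 without mouse KO3.

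Rtp4, a receptor chaperone with antiviral activity, was at 79.5, 90.2, 53.4 and 74.0 CPM in MPP3 WT 1 to 4 and at 79.5, 83.9, 117 and 81.7 CPM in MPP3 KO 1 to 4. Here 3 of 4 KO libraries lay between the lowest and the highest WT library. In MPP4, Rtp4 was at 114, 115, 76.6 and 96.5 CPM in WT 1 to 4 and at 77.8, 78.5, 129.5 and 99.0 CPM in KO 1 to 4, and KO 1 and KO 2 were near the lowest WT library. Its log2 fold changes were 0.29 ± 0.19 and -0.06 ± 0.19, and 0.14 and -0.24 without mouse KO3. Stat2 was at 52.3, 37.6, 29.7 and 18.8 CPM in MPP3 WT 1 to 4 and at 25.1, 28.7, 33.4 and 38.1 CPM in MPP3 KO 1 to 4 and varied more among the WT libraries than between the genotypes. Stat2 in MPP4 was at 52.6, 50.0, 39.4 and 33.6 CPM in WT 1 to 4 and at 35.4, 42.3, 37.5 and 43.5 CPM in KO 1 to 4.

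Among the membrane restriction factors, Bst2 was at 99.7, 116, 94.4 and 109 CPM in MPP3 WT 1 to 4 and at 107, 128, 133 and 114 CPM in MPP3 KO 1 to 4. Bst2 in MPP4 was at 124, 133, 107 and 136 CPM in WT 1 to 4 and at 138, 169, 184 and 134 CPM in KO 1 to 4, where KO 4 lay just under the highest WT library (log2 fold change 0.32 ± 0.11; edgeR FDR = 0.317). Ifitm3 was at 365, 369, 335 and 378 CPM in MPP3 WT 1 to 4 and at 402, 451, 506 and 392 CPM in MPP3 KO 1 to 4, without overlap (log2 fold change 0.28 ± 0.11; edgeR FDR = 0.472). In MPP4, Ifitm3 was at 385, 404, 326 and 406 CPM in WT 1 to 4 and at 350.4, 437, 516 and 399 CPM in KO 1 to 4, and the groups overlapped (0.16 ± 0.11; edgeR FDR = 0.644). Samhd1 was at 66.1, 60.4, 75.2 and 63.4 CPM in MPP3 WT 1 to 4 and at 68.3, 71.1, 82.3 and 75.5 CPM in MPP3 KO 1 to 4. Samhd1 in MPP4 was at 53.8, 50.5, 59.7 and 56.1 CPM in WT 1 to 4 and at 56.4, 51.8, 59.5 and 68.2 CPM in KO 1 to 4, with log2 fold changes of 0.16 ± 0.10 and 0.10 ± 0.10.

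Irgm2, whose annotated span overlaps Igtp, was at 48.1, 37.0, 27.9 and 40.6 CPM in MPP3 WT 1 to 4 and at 53.5, 42.9, 54.8 and 40.4 CPM in MPP3 KO 1 to 4 (log2 fold change 0.32 ± 0.15; edgeR FDR = 0.555). In MPP4, it was at 45.5, 42.8, 33.9 and 37.8 CPM in WT 1 to 4 and at 37.9, 37.8, 41.1 and 38.1 CPM in KO 1 to 4, with a log2 fold change of -0.05 ± 0.15. KO 1 and KO 3 lay above the WT range in MPP3, and every KO library lay within it in MPP4. Tap1 was at 275, 235, 207 and 249 CPM in MPP3 WT 1 to 4 and at 241, 257, 329 and 251 CPM in MPP3 KO 1 to 4. Tap1 in MPP4 was at 269, 277, 268 and 285 CPM in WT 1 to 4 and at 259.7, 301, 379 and 257 CPM in KO 1 to 4. KO 3 lay above all WT libraries in both populations, KO 2 did so in MPP4 only, and the other KO libraries did in neither. Psmb9, which shares its promoter region with Tap1, was at 230.4, 211, 206 and 231 CPM in MPP3 WT 1 to 4 and at 221, 253, 272 and 248 CPM in MPP3 KO 1 to 4. Psmb9 in MPP4 was at 267, 248, 231 and 269 CPM in WT 1 to 4 and at 267, 293, 296 and 276 CPM in KO 1 to 4, and KO 1 was the only KO library under the highest WT library there. Parp14, an ADP-ribosyltransferase, was at 20.6, 22.6, 27.4 and 18.8 CPM in MPP3 WT 1 to 4 and at 18.1, 22.8, 23.2 and 23.5 CPM in MPP3 KO 1 to 4. Parp14 in MPP4 was at 29.4, 24.97, 17.2 and 22.5 CPM in WT 1 to 4 and at 21.2, 19.1, 25.5 and 29.2 CPM in KO 1 to 4, and the groups overlapped in both.

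By role, the median log2 fold change in MPP3 was 0.61 for the Ifit family (3 genes), 0.36 for the immunity-related GTPases (5 genes), 0.33 for the 2-5A synthetase family (5 genes), whose products activate the RNase that degrades viral RNA, and 0.16 for antigen processing (5 genes). In MPP4, the corresponding medians were 0.27, 0.16, 0.02 and 0.12. The Ifit medians are the values of Ifit1, which was at 0.35 in MPP3 and -0.17 in MPP4 without mouse KO3. The guanylate-binding proteins (7 genes) had medians of 0.20 in MPP3 and 0.38 in MPP4, the highest of any role there with all libraries. In MPP4, Gbp6, Gbp8 and Gbp9 were at 20.8, 20.1 and 8.85 CPM in KO 3, above every other KO library. Without mouse KO3, the MPP4 log2 fold change of Gbp6 was -0.046 and that of Gbp3 was 0.30. The membrane restriction factors (Bst2, Ifitm1, Ifitm2 and Ifitm3) had 4 of 4 members above 0 in both populations, with medians of 0.24 and 0.24. Within them, Ifitm1 was at 352 to 466 CPM in MPP3 WT, against 437 to 754 CPM in MPP3 KO, where KO 2 and KO 1, not KO 3, were highest. The 3 PARP and DTX genes, Parp9, Parp14 and Dtx3l, had a median of -0.03 in MPP3 and 0.02 in MPP4. Stat2, the type I signal transducer, had log2 fold changes of -0.14 in both.

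**Figure D2:**
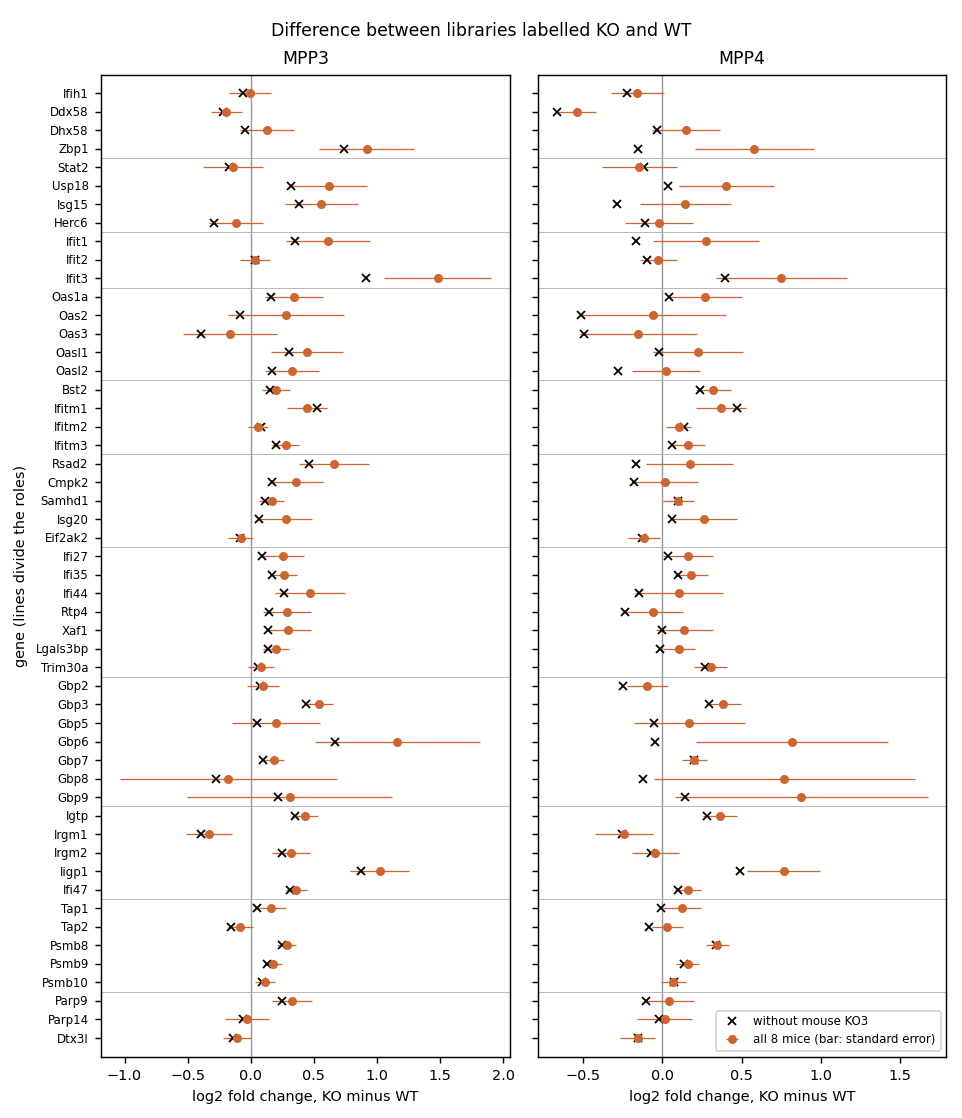
log2 fold change of each of the 52 members, KO minus WT, in MPP3 (left) and MPP4 (right), with the standard error; crosses give the value without both libraries of mouse KO3, and grey lines divide the roles. Without KO3, the median is 0.14 in MPP3 and -0.03 in MPP4.

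No difference between the populations in the KO to WT contrast passed the test. The interaction of genotype and population gave 0 members with an FDR under 0.1 (0% of genes) by edgeR, 0 by DESeq2 (0.0423% of genes higher and 0.0363% lower), and 0 members at an unadjusted p under 0.05 in either direction, against 1.63% and 1.24% of genes. Since the populations were taken as paired by mouse, the mouse was also fitted as a block, which left 0 members at an FDR under 0.1 (0.00603% of genes, all lower) but gave 9 (17.3%) at an unadjusted p under 0.05, against 5.43% of genes. All 9 were more positive in MPP3, among them Rtp4 (interaction 0.37 ± 0.10), Ddx58 (0.35 ± 0.14), Irgm2 (0.37 ± 0.14) and Ifi47 (0.19 ± 0.08), with edgeR FDRs of 0.867 to 0.912.

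Single libraries were then scored by the median, over the 52 members, of the deviation of log2(CPM + 0.5) from its mean over the 16 libraries. The scores of MPP3 WT 1 to 4 were -0.10, -0.07, -0.28 and -0.11, and those of MPP3 KO 1 to 4 were -0.05, -0.004, 0.36 and 0.03. In MPP4, WT 1 to 4 scored 0.01, 0.11, -0.21 and -0.02, and KO 1 to 4 scored -0.10, -0.04, 0.45 and 0.07. The KO libraries all scored above the WT libraries in MPP3, but they interleaved in MPP4. Mouse KO3 had the highest score and mouse WT3 the lowest in both populations, and the same score over all tested genes stayed between -0.01 and 0.02 in every library.

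The score of KO3 came from most of the members. MPP3 KO 3 was above the mean of all libraries in 48 of 52 members (49.6% of all genes) and MPP4 KO 3 in 45 (51% of all genes). Within its group, KO 3 was the highest library for 39 members in MPP3 and 38 in MPP4, against 22% and 25.3% of all genes, and WT 3 was the lowest WT library for 31 and 34 members, against 26.8% and 26% of genes. The role with the largest deviation in KO 3 was the Ifit family (0.97 in MPP3 and 1.00 in MPP4), followed in MPP4 by the 2-5A synthetases (0.92). Antigen processing genes deviated by only 0.16 and 0.28 and the membrane restriction factors by 0.09 and 0.11. Usp18 in MPP4 was at 80.6 CPM in KO 3 and at 30.1 to 46.5 CPM in the other KO libraries, and Gbp6, a guanylate-binding protein gene of low level, was at 20.8 CPM in KO 3 and at 3.19 to 6.80 CPM in the other KO libraries.

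**Figure D3:**
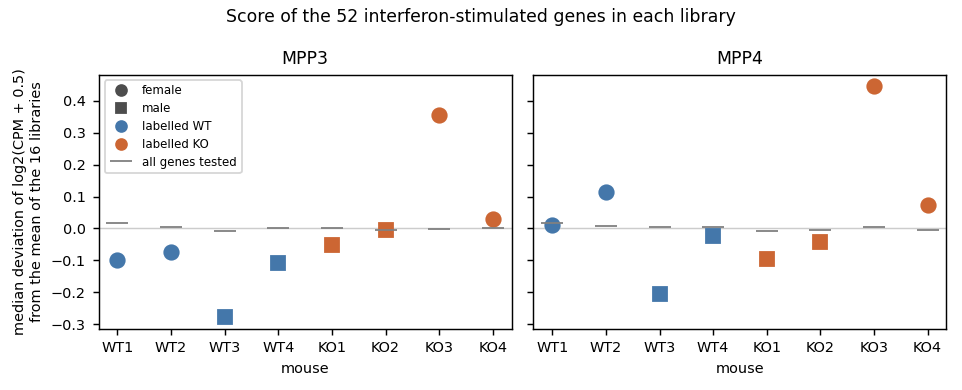
Score of the members in each library, the median deviation of log2(CPM + 0.5) from the mean of the 16 libraries; circles are female and squares male mice, blue is WT and orange KO, and grey dashes give the same score over all tested genes. KO3 stands at 0.36 in MPP3 and 0.45 in MPP4.

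Leaving out both libraries of KO3 lowered the median log2 fold change of the members from 0.27 to 0.14 in MPP3 and turned it from 0.15 to -0.03 in MPP4, where 21 of 52 members were then above 0, against 47.7% of genes. At an unadjusted p under 0.05, 9 members were higher in MPP3 without this mouse, against 3.1% of genes, and 8 in MPP4, against 4.55% of genes, and 1 was lower in each, against 3.99% and 6.71% of genes. Gbp3, Igtp, Iigp1 and Psmb8 had log2 fold changes of 0.44, 0.35, 0.87 and 0.25 in MPP3 and 0.30, 0.28, 0.49 and 0.34 in MPP4 without this mouse. Usp18 went from 0.40 to 0.03 and Isg15 from 0.15 to -0.29 in MPP4. Without KO3, edgeR gave Ddx58 in MPP4 a log2 fold change of -0.67 and an FDR of 0.0974, the only member with an FDR under 0.1 there. Gbp3 in MPP3 reached an FDR of 0.0763 (log2 fold change 0.63) without mouse WT4 and of 0.0888 (0.58) without mouse KO1. The number of all genes with such an FDR in these fits is not given here, so these calls are not set against a background.

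**Figure D4:**
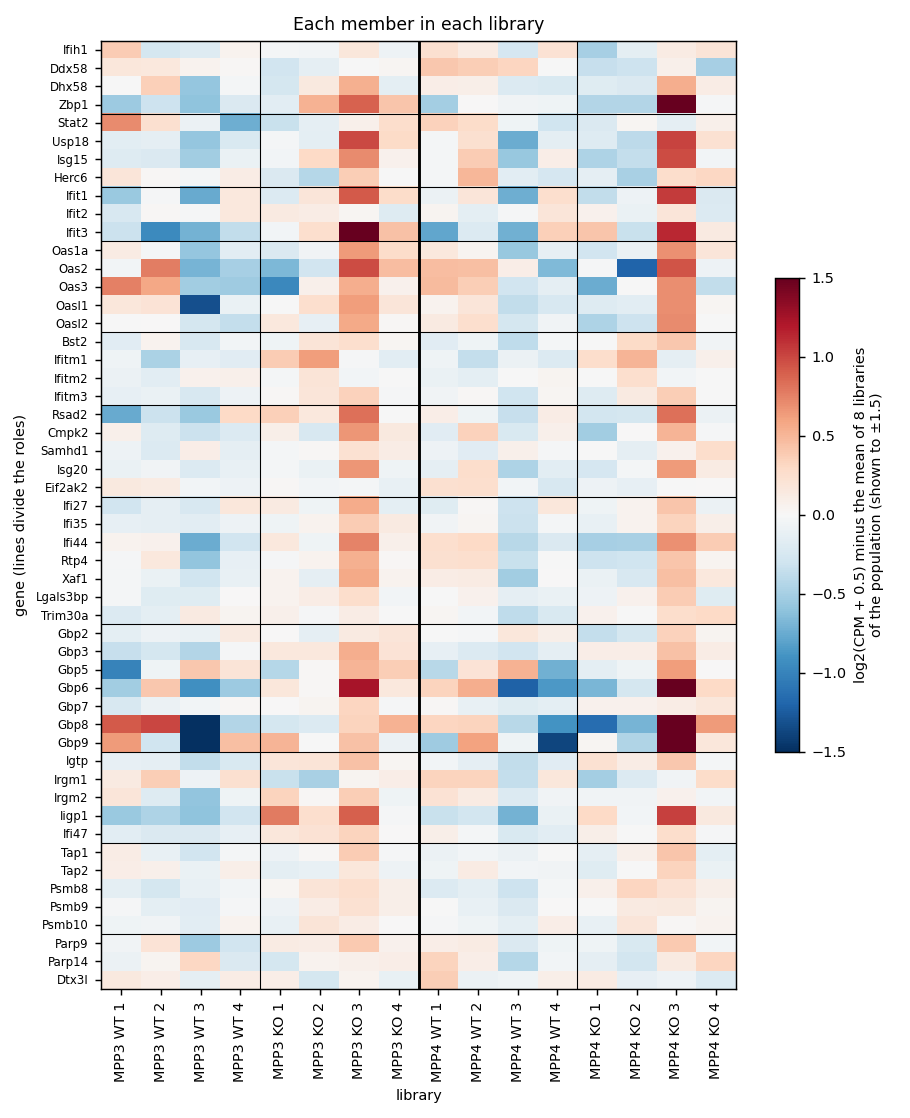
log2(CPM + 0.5) of each member in each of the 16 libraries, minus the mean of the 8 libraries of that population, on a color scale from -1.5 (blue) to 1.5 (red); black lines divide the roles and groups. The MPP3 KO 3 and MPP4 KO 3 columns are red for most members, and the MPP3 WT 3 and MPP4 WT 3 columns are blue; the columns of KO 4, whose scores are 0.03 and 0.07, are pale.

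The 2 sexes were split evenly within each genotype, and females scored above males in each group. A term for sex beside genotype within each population was therefore added after the scores had been seen. At an unadjusted p under 0.05, 13 of 52 members were higher in females in MPP3 (25%, against 6.85% of genes) and 22 in MPP4 (42.3%, against 4.82% of genes), and 2 were lower in each (Ifitm1 and Ifitm2), against 6% and 5.61% of genes. With edgeR, 0 members had an FDR under 0.1 in MPP3 (0.0844% of genes higher and 0.0482% lower) and 1 in MPP4 (0.0663% higher and 0.0543% lower). Without KO3, 6 and 16 members were higher in females at that p, against 6.81% and 5.69% of genes. In KO mice, the females were 11 wk old and the males 10 and 9 wk, so sex and age cannot be told apart there.

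The member that passed was Ifi44, an interferon-inducible gene that restrains virus replication. In MPP4, the females WT1, WT2, KO3 and KO4 were at 48.4, 50.0, 65.4 and 52.9 CPM and the males WT3, WT4, KO1 and KO2 at 30.2, 34.9, 28.6 and 28.8 CPM. The sexes did not overlap, and the log2 fold change, female minus male, was 0.81 ± 0.13 (edgeR FDR = 0.0905). The number of members with an FDR under 0.1 for sex in MPP4 was 0 without any 1 of the mice WT1, WT2, WT3, WT4, KO1 and KO2, 1 without KO4 and 3 without KO3, and in MPP3 it was 1 without WT1 or KO2 and 0 without any other mouse. Of all genes, 20 had such an FDR in MPP4 with all mice, 8 to 22 without a mouse other than KO3 and 318 without KO3, and 7 to 28 did in MPP3 without 1 mouse. Oas1a, a 2-5A synthetase, was at 58.9, 54.3, 85.2 and 59.8 CPM in the same females and at 35.3, 48.1, 43.1 and 48.98 CPM in the males in MPP4 (log2 fold change 0.54 ± 0.14; edgeR FDR = 0.275). Gbp6 was at 6.96, 8.15, 20.8 and 6.80 CPM in females and at 2.07, 2.77, 3.19 and 4.45 CPM in males, also without overlap (log2 fold change 1.74 ± 0.33; edgeR FDR = 0.156). Ifi44 was chosen after its values had been seen, as were Usp18, Ifit3, Gbp8, Ifitm1 and Irgm1 above and below.

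MPP3 and MPP4 were compared within each genotype. With 1 mean per group, edgeR called 2 members higher in MPP3 of WT mice (4.71% of genes) and 3 lower (6.07% of genes), and 3 higher (6.72%) and 3 lower (6.51%) in KO mice, which is near the background. At an unadjusted p under 0.05, 3 were higher (8.58% of genes) and 11 lower (9.98%) in WT, and 7 higher (10.8%) and 6 lower (10.6%) in KO. DESeq2 gave 3 higher (6% of genes) and 5 lower (7.29%) in WT, and 3 higher (8.01%) and 4 lower (7.76%) in KO. The groups were apart in 3 higher (6.45% of genes) and 3 lower (7.13%) members in WT, and in 3 higher (7.33%) and 1 lower (7.16%) in KO. On the same pairing, mouse as a block gave 3 higher (7.5% of genes) and 19 lower (9.44% of genes) in WT and 11 higher (10.2%) and 10 lower (10.1%) in KO. The 19 members lower in WT MPP3 were 36.5% of the list. They included Stat2, Isg15, Ifit3, Oas3, Oasl1, Bst2, Rtp4, Xaf1, Iigp1, Tap1 and Psmb9. As the interaction gave 0 members, the differing counts in WT and KO are not shown to be a difference between the genotypes.

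With mouse as a block, Gbp6 had the largest log2 difference of the members in both genotypes (without the block, Gbp8 did in KO). Gbp6 was at 0.629, 1.64, 0.357 and 0.608 CPM in MPP3 WT 1 to 4 and at 6.96, 8.15, 2.07 and 2.77 CPM in MPP4 WT 1 to 4, and every MPP3 library was below every MPP4 library of WT mice. Its blocked log2 fold change, MPP3 minus MPP4, was -2.61 ± 0.30 in WT (edgeR FDR = 0.000161) and -2.09 ± 0.28 in KO (edgeR FDR = 0.000491). Gbp8 had values of -1.99 ± 0.70 in WT (edgeR FDR = 0.0983) and -2.002 ± 0.69 in KO (edgeR FDR = 0.0787). Gbp2, of the same family but from the cluster on chromosome 3, went the other way: it was at 78.2, 81.9, 80.6 and 95.6 CPM in MPP3 WT 1 to 4 and 60.6, 59.8, 68.4 and 64.2 CPM in MPP4 WT 1 to 4. Its blocked log2 fold change was 0.41 ± 0.09 in WT (edgeR FDR = 0.0123) and 0.62 ± 0.09 in KO (edgeR FDR = 0.000793). The cluster was not uniform. Gbp3 was lower in MPP3, by -0.30 ± 0.07 in WT (edgeR FDR = 0.0124) and -0.15 ± 0.07 in KO (edgeR FDR = 0.186). Gbp5 and Gbp7, also on chromosome 3, had FDRs above 0.1 in both genotypes.

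Ifitm2 was at 846, 806, 941 and 956 CPM in MPP3 WT 1 to 4 and at 714, 690.3, 759 and 788 CPM in MPP4 WT 1 to 4, with a blocked log2 fold change of 0.26 ± 0.03 (edgeR FDR = 0.000164). The groups did not overlap, and the WT mice kept their order from MPP3 to MPP4. Samhd1, which depletes the nucleotide pool, was also higher in MPP3, by 0.27 ± 0.07 in WT and 0.34 ± 0.07 in KO (edgeR FDR = 0.0332 and 0.00900). Bst2 was lower in MPP3, by -0.25 ± 0.06 in WT and -0.37 ± 0.06 in KO (edgeR FDR = 0.0126 and 0.00107). Xaf1, a proapoptotic gene, was at 30.1 to 36.2 CPM in MPP3 WT and 34.7 to 54.5 CPM in MPP4 WT, and its blocked log2 fold change was -0.50 ± 0.09 (edgeR FDR = 0.00335).

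**Figure D5:**
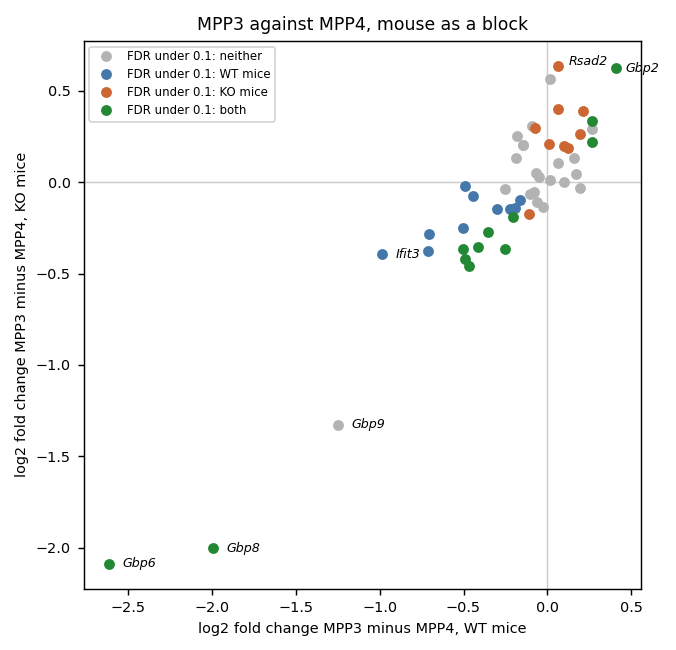
log2 fold change of each member, MPP3 minus MPP4, in WT mice (x axis) and in KO mice (y axis), from the fit with mouse as a block; colors give where the edgeR FDR was under 0.1. Gbp6 and Gbp8 lie near -2 on both axes, at -2.61 and -1.99 in WT, and Gbp2 lies at the upper right, at 0.41 and 0.62.

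Of the genes that send and receive the signal, 26 of 35 listed were tested. All 7 interferon genes stayed at or under 10 counts on average, and their highest count in any library was 8, for Ifna1. The receptors were present: Ifnar1 averaged 83.0 ± 7.0 CPM in MPP3 WT, against 80.2 ± 3.2 CPM in MPP3 KO, and Ifngr1 241 ± 15 and 268 ± 21 CPM (SD, n = 4). With edgeR, 0 of the 26 had an FDR under 0.1 in either population, and at an unadjusted p under 0.05, 0 were higher and 1 was lower in MPP3 (3.84% and 5.04% of all genes), and 2 were higher and 3 lower in MPP4 (4.46% and 5.89%). The ones named were those with the smallest p: Tyk2, a receptor-bound kinase, was lower in both, by -0.45 ± 0.21 and -0.54 ± 0.21, and Jak1 and Stat3 were lower in MPP4, by -0.23 ± 0.06 and -0.24 ± 0.07, while Sting1, the adaptor of DNA sensing, was higher there by 0.21 ± 0.07. Ifngr1 and Ifngr2 had log2 fold changes of 0.15 ± 0.08 and 0.24 ± 0.12 in MPP3. Socs1, a feedback inhibitor and itself induced by interferon, was at 14.3 ± 1.2 CPM in MPP4 WT and 20.6 ± 2.4 CPM in MPP4 KO (log2 fold change 0.53 ± 0.21; edgeR FDR = 0.373). Socs1 and Ifnar1 were chosen after their values had been seen.

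A list of 51 other interferon-inducible genes was also read. With edgeR, 0 had an FDR under 0.1. At an unadjusted p under 0.05, 10 were higher and 1 was lower in MPP3 (3.84% and 5.04% of all genes), and 5 were higher and 1 lower in MPP4 (4.46% and 5.89%). A log2 fold change above 0 was found for 36 in MPP3 (48.7% of all genes) and 33 in MPP4 (47.5%). Ly6a, which encodes the Sca-1 antigen of the LSK gate and is itself interferon-inducible, was at 30.05 CPM in MPP3 WT, against 41.7 CPM in MPP3 KO and at 49.2 CPM in MPP4 WT, against 66.5 CPM in MPP4 KO, with log2 fold changes of 0.47 ± 0.13 and 0.43 ± 0.13 (edgeR FDR = 0.252 and 0.255). Phf11d had 1.24 ± 0.27 and 0.97 ± 0.27 (edgeR FDR = 0.183 and 0.237). Gm4951 had 1.85 ± 0.49 and 1.23 ± 0.48 (edgeR FDR = 0.236 and 0.366), and Sp110 had 0.17 ± 0.07 in MPP4 (edgeR FDR = 0.361). The 1 gene lower in MPP3 was Pml, of nuclear bodies, at -0.38 ± 0.11, and in MPP4 it was Shisa5, at -0.19 ± 0.08; both were chosen after their values had been seen.

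Markers of other cells and of the sort gate differed with genotype in part. The summed level of 9 monocyte and macrophage markers, of which 0 were at 0 in all libraries, was 436 to 520 CPM in MPP3 WT, against 470 to 775 CPM in MPP3 KO, and 345 to 370 CPM in MPP4 WT, against 345 to 475 CPM in MPP4 KO. All 9 had log2 fold changes above 0 in both populations (medians 0.76 and 0.47), 6 and 3 were higher at an unadjusted p under 0.05, and DESeq2 called 3 and 1, but edgeR gave 0 with an FDR under 0.1. The 4 MPP3-side genes summed to 5503 to 9320 CPM in MPP3 WT, against 6576 to 15496 CPM in MPP3 KO. Their median log2 fold change was 0.76 in MPP3, with 4 of 4 above 0, 3 higher at an unadjusted p under 0.05 and 2 called by DESeq2, and 0.33 in MPP4, with 3 above 0, 1 higher at that p and 1 called by DESeq2, while edgeR gave 0 with an FDR under 0.1. Among 8 plasma cell markers the sum was 465 to 1552 CPM in MPP3 WT, against 307 to 652 CPM in MPP3 KO, and 1370 to 1457 CPM in MPP4 WT, against 1278 to 1674 CPM in MPP4 KO. Their median log2 fold change was -2.40 in MPP3 and -0.51 in MPP4, with 5 and 2 lower at an unadjusted p under 0.05, 2 and 0 called lower by DESeq2 and 0 by edgeR. Of the 8, 2 had log2 fold changes above 0 in each population. Igkc, the kappa light chain of antibodies, had 12659, 9154, 3443 and 2674 counts in WT 1 to 4 of MPP3, whereas KO 1 to 4 had 0, 0, 2306 and 0. Jchain, which joins antibody units, had 1363 to 4422 counts in the MPP3 WT libraries, whereas KO 1 to 4 had 0, 8, 778 and 3, so that KO 3 alone of the MPP3 KO libraries held these transcripts in number. In MPP4 KO 3, Igkc had 6 and Jchain 31 counts. The 6 markers of plasmacytoid dendritic cells, the main source of type I interferon, summed to 253 to 292 CPM in MPP3 WT, against 249 to 290 CPM in MPP3 KO and to 448 to 515 CPM and 492 to 521 CPM in MPP4. This list holds Bst2, most of the sum was Tcf4 and Bst2, and Klk1 was at 0 in every library. Of the 5 tested, 3 were above 0 in each population (medians 0.20 in MPP3 and 0.32 in MPP4). At an unadjusted p under 0.05, 0 were higher in MPP3 and 2 in MPP4, and edgeR and DESeq2 called 0 in either. In mouse KO3, the plasma cell sum was the highest of the KO libraries in both populations (652 and 1674 CPM), but most of it was Ighm and Xbp1. In MPP4 KO 3, these had 34866 and 7203 counts. The MPP3-side sum of mouse KO3 in MPP3 (15496 CPM) was close to that of KO4 (15447 CPM), whose score was 0.03.

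The B cell sum (66.8 to 93.8 CPM) was mostly Cd79b (1786 to 3973 counts per library), while the 4 other B cell markers had log2 fold changes below 0 in both populations, and the median log2 fold change of the 5 was -1.87 in MPP3 and -3.86 in MPP4. With DESeq2, 1 B cell marker in MPP3 and 3 in MPP4 were called lower, and with edgeR 0 had an FDR under 0.1 (2 and 3 lower at an unadjusted p under 0.05). Cd79a, a signalling subunit of the B cell receptor, had 81, 47, 354 and 202 counts in MPP4 WT 1 to 4 and 0, 6, 26 and 0 in MPP4 KO 1 to 4. The 6 genes of the progenitor gate summed to 2938 to 3073 CPM in MPP3 WT, against 2668 to 2965 CPM in MPP3 KO, and to 3695 to 4087 CPM in MPP4 WT, against 3333 to 3559 CPM in MPP4 KO, where the groups did not overlap. Of them, Kit, the stem cell factor receptor, was called lower in MPP4 KO by edgeR (log2 fold change -0.42 ± 0.07; edgeR FDR = 0.0669). The sums of the conventional dendritic cell (0.933 to 10.3 CPM), neutrophil (1.49 to 75.5 CPM), erythroid (19.9 to 88.2 CPM) and T and NK cell (241 to 650.3 CPM) lists overlapped between WT and KO in both populations. The endothelial sum was 28.9 to 40.7 CPM in MPP3 WT, against 23.1 to 35.7 CPM in MPP3 KO, and 31.2 to 34.0 CPM in MPP4 WT, against 23.6 to 28.7 CPM in MPP4 KO, without overlap in MPP4. The part of these levels in the results was not tested.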

How the data were processed

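Gene expression was read in 16 libraries, MPP3 and MPP4 of 4 WT and 4 KO mice. The deposited files hold raw counts per gene; per the labels and the study's methods, the authors aligned reads to mm10 with STAR 2.7.3a within snakePipes and counted them with featureCounts 2.0.0. The annotation release and the use of strand are not given in the sources used here. A deposited table of normalized values was not used. Coordinates and exon lengths are from GRCm38 (GENCODE) and promoters from RefSeq.

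Genes whose mean exceeded 10 counts in at least 1 group (16585) were tested with edgeR 4.0.16 in R 4.3.3: quasi-likelihood F-tests, TMM normalization, 1 mean per group, all 16 libraries in 1 fit, Benjamini-Hochberg adjustment and a false discovery rate (FDR) threshold of 0.1. CPM use TMM-scaled totals. SE is that of the log2 fold change. DESeq2 1.42.0 and limma 3.58.1 were alternatives, as were other filters and size factors, age, sex, blocks and leaving out libraries or mice. The script was tested on simulated data. The members, lists and rules were chosen with earlier results of these data known. Named were 1 or 2 fixed members per role, and the smallest p-values of each comparison (5 for each KO to WT and the WT population comparison, 2 for the interaction). With 4 mice per group, the p-values of the KO to WT comparisons measure the spread between mice. The main fit treated the 16 libraries as independent, although those taken as 1 mouse correlated at 0.311 in limma-voom. With mouse as a block, p-values measure the spread of the differences within mice. Total counts per library set the counting error only.

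MPP3 and MPP4 libraries with 1 number and genotype have the same sex and age in the labels and were taken as 1 mouse: their MPP3 and MPP4 deviations from the group means correlated at 0.168 to 0.406 in all 8 mice, and every MPP3 library correlated best with the MPP4 library of its own number, but MPP4 WT 2 correlated better with MPP3 WT 1 (0.198) than with MPP3 WT 2 (0.168). Equal numbers in WT and KO are different mice (-0.321 to 0.0935). No 2 libraries of a group agreed within sampling noise.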

Additional observations from a re-analysis of the deposited data

Results flagged for a closer look

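The 23 members named by rule were examined within each group of 4 libraries, and 10 of 92 groups held a library whose gap to its nearest neighbour exceeded the 95% critical value of Dixon's test; about 1 group in 20 does so by chance. Over all 52 members it was 20 of 208 (9.62%), of which 6 were MPP3 KO 3 and 7 MPP4 KO 3. The share over all tested genes was not computed, and members that move together in a library are not separate events. High in MPP3 KO 3 were Ifih1 (50.8 CPM), Rtp4 (117 CPM), Gbp3 (96.6 CPM) and Gbp6 (3.29 CPM). High in MPP4 KO 3 were Ifit1 (36.2 CPM), Gbp3 (104.9 CPM) and Irgm2 (41.1 CPM). Ifitm2 was high in the KO 2 library of both populations (1031 CPM in MPP3 and 908 CPM in MPP4), and Parp14 was low in MPP3 KO 1 (18.1 CPM). The score of MPP3 WT 3 (-0.28) was low against those of the other MPP3 WT libraries. No member had an interaction of genotype and population with an FDR under 0.1, and none had groups that were separate in opposite directions in the 2 populations.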

How the results depend on the processing

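With edgeR, 0 members had an FDR under 0.1 between KO and WT in either population. DESeq2 gave 6 in MPP3 (all higher) and 5 in MPP4 (4 higher and 1 lower). For other interferon-inducible genes it gave 3 higher and 1 lower in MPP3 and 2 higher in MPP4. For pathway genes it gave 1 lower in MPP4. Of all genes, DESeq2 called 0.693% higher and 0.661% lower in MPP3, and 1.08% higher and 1.22% lower in MPP4. In MPP4, sex as a term gave 2 members (Ddx58 and Psmb8; 91 of all genes) and limma-voom with mouse as a random block gave 1 (Psmb8; 26 of all genes), where the reported fit gave 2 of all genes. Leaving out libraries or mice, members called numbered 0 to 1 in MPP3 (Gbp3 without WT4 or KO1) and 0 to 1 in MPP4 (Ddx58 without KO3), and other interferon-inducible genes from 0 to 1 in each (without mouse KO4). For the fits of this section that left out libraries or mice, the number of all genes called is not given here. The median log2 fold change lay between 0.14 and 0.29 in MPP3 and between -0.029 and 0.20 in MPP4, lowest without KO3, and with age as a term it was 0.32 in MPP3 and 0.24 in MPP4. Between MPP3 and MPP4, WT gave 5 members (1788 of all genes): 8 with DESeq2 (2199), 3 without a filter beyond 1 count (1509), 9 with sex as a term (2101), 22 with the mouse as a replicate block (2809), and 0 to 9 leaving out libraries (0 without mouse WT1, 9 without mouse KO3). KO gave 6 (2193): 21 with the mouse as a block (3360), and 3 (without mouse KO2) to 8 (without MPP3 KO 3) leaving out libraries. The replicate number as a block between WT and KO changed no call; these samples share only a number. By the mean over members in place of the median, the score of MPP3 WT 3 was -0.43.

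Several log2 fold changes turned in sign, among them that of Gbp6 in MPP4, 0.82 with all libraries and -0.046 without KO3. With age as a term, they were 0.12 for Ifih1, 0.051 for Stat2, 0.15 for Parp14 and -0.047 for Ifitm2 in MPP3, and 0.053 for Stat2, 0.048 for Rtp4, 0.063 for Gbp2 and -0.0024 for Ifitm2 in MPP4. KO mice were 9 to 11 and WT mice 11 to 12 wk old, so age and genotype are only partly separable. Ifih1 in MPP3 was 0.012 with the replicate block and 0.0064 with limma-voom. Leaving out libraries gave ranges in MPP3 of -0.079 to 0.14 for Ifih1, -0.10 to 0.10 for Parp14 and -0.34 to 0.13 for Stat2, and in MPP4 of -0.046 to 1.17 for Gbp6, -0.17 to 0.43 for Ifit1, -0.10 to 0.028 for Irgm2, -0.29 to 0.31 for Isg15, -0.10 to 0.15 for Parp14, -0.24 to 0.026 for Rtp4, -0.0096 to 0.20 for Tap1 and -0.0053 to 0.24 for Xaf1. The cause was not tested. Low members such as Gbp6, Gbp8 and Gbp9 rest on few counts, and 4 mice per group limit all tests.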
